A study of Mus musculus with 8 samples.

Results

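The mouse genes followed here mark or set position in the olfactory epithelium, and were measured by RNA sequencing of that tissue. They were the dorsal zone markers Nqo1 and Acsm4, the ventral zone marker Ncam2, and the nuclear factor I transcription factors Nfia, Nfib and Nfix. The 6 genes were taken by symbol from a table of 25913 genes, and all 6 passed the filter on low counts. The mice were C57BL/6J and 40 weeks old. The series compares mice lacking the insulin-like growth factor 1 receptor, Igf1r, in olfactory sensory neurons with controls, in lines named for Omp, a gene of mature neurons of this kind. Its design text speaks of extracted sensory neurons, while the extraction protocol describes dissected epithelium. There were 4 libraries titled IGF1R_flfl (replicates 1, 2, 13 and 3) and 4 titled OMP_IGF1R (replicates 11, 12, 17 and 18), with total counts of 18802471 to 27793375. The genotype field gives the opposite names, OMPIGF1 (KO) for the libraries titled IGF1R_flfl and OMPflfl (Ctrl) for those titled OMP_IGF1R. Groups are therefore named by title and every fold change is of OMP_IGF1R over IGF1R_flfl; which genotype is the higher one cannot be told from the labels. Whether each library is its own mouse is not stated, so the p-values speak to spread among these libraries, possibly technical.

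The olfactory epithelium is divided into zones along its dorsal to ventral axis, and each sensory neuron expresses a receptor gene that belongs to the zone it lies in. Class I olfactory receptors and most trace amine-associated receptors are expressed in the dorsal zone, together with the quinone reductase Nqo1 and the medium-chain acyl-CoA synthetase Acsm4, while the adhesion molecule Ncam2 (also known as OCAM) marks neurons outside the dorsal zone. Nuclear factor I proteins bind DNA as dimers, are expressed in neuronal precursors and many other cells, and take part in the choice of ventral receptors.

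The promoters of the zone markers are printed because Nqo1 and Acsm4 varied together across libraries and Ncam2 ran against them within groups. The windows run from 250 bases before to 50 after the start site on the gene's strand (RefSeq, GRCm38.p6), and 5 of the 6 members were matched, Nfib being the other. Capitals mark the nuclear factor I half-site TTGGC and the EBF site (TCCC and GGGA with any 2 bases between), searched on both strands.
Nqo1, chr8:107403156-107403455, minus strand: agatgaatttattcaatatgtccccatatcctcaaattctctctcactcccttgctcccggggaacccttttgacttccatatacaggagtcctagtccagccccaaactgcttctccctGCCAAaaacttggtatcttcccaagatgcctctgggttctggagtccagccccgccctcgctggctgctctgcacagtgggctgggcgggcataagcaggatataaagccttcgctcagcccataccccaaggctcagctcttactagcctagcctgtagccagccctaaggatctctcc
Acsm4, chr7:119689776-119690075, plus strand: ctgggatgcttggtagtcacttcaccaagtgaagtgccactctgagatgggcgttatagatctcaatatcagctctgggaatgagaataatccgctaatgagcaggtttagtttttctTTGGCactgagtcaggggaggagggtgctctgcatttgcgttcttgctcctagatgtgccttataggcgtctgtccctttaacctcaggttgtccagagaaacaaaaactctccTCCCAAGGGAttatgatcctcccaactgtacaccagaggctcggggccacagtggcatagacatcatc
Ncam2, chr16:81200447-81200746, plus strand: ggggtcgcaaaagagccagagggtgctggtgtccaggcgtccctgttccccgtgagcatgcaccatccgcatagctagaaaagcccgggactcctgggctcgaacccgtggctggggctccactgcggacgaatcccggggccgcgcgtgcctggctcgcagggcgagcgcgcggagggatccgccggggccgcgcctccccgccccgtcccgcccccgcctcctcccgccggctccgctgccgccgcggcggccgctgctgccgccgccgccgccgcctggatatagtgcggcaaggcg

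The half-site lay at -130 in Nqo1 and at -132 in Acsm4, counted from the start site to the first base of the match, and the Ncam2 window held none. Half-sites are short, and 47.0% of the 27025 promoter windows of the table and 31.7% of the 944 windows of olfactory receptor genes held one. The receptor windows were poorer in G and C (36.1% against 53.6% over all windows). The EBF site at -18 of Acsm4 was in 0.914% of all windows. The full nuclear factor I site, in which TTGGC and GCCAA flank any 5 bases and which therefore contains the half-site, was in 11 of the 27025 windows, in 0 receptor windows and in 0 windows of the members. The Nqo1 window did not hold the antioxidant response element TGACNNNGC, which 12.5% of all windows held. A match is a stretch of letters, not a measured binding site.

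The targeted gene, and Omp, which the lines are named for, were checked first. Igf1r ran from 55.5 to 72.9 CPM (counts scaled to library size) in the libraries titled IGF1R_flfl and from 34.5 to 49.6 CPM in those titled OMP_IGF1R, and Omp from 4470 to 6734 and from 1708 to 2185 CPM. Both were lower where the genotype field names the control. The 16 mature sensory neuron markers were all detected, and their summed level ran from 13278 to 17786 CPM in IGF1R_flfl and from 8974 to 10197 CPM in OMP_IGF1R. Supporting (sustentacular) cell markers summed to 23383 to 29198 CPM, so the libraries hold epithelium beyond its neurons. Markers of olfactory bulb and oligodendrocytes were far higher in IGF1R_flfl 2 than elsewhere (1479 CPM, against 103 to 166 CPM in the other libraries). OMP_IGF1R 17 stood apart in skeletal muscle markers (500 CPM, against 4.53 to 8.11 CPM). In such bulk tissue, fewer cells of a type and less RNA per cell cannot be told apart.

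Per kilobase of exon, the dorsal markers were the most abundant of the 6 genes. Over the 8 libraries Acsm4 averaged 194 CPM per kb, Nqo1 158, Nfix 21.1, Nfib 10.7, Ncam2 7.38 and Nfia 3.94 CPM per kb. Acsm4 and Nqo1 stood at 179 ± 44.3 and 175 ± 60.8 CPM per kb in IGF1R_flfl, within their spread, and at 210 ± 48.6 and 141 ± 56.5 CPM per kb in OMP_IGF1R, further apart than 1 SD (SD, n = 4 each). The remaining neighbours in that order differed by more than their SD in both groups, Nfib and Ncam2 being closest, at 9.86 ± 1.04 and 7.94 ± 0.405 CPM per kb in IGF1R_flfl (SD, n = 4).

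None of the 6 genes was called as different between titles. With edgeR and an adjusted p under 0.05, 0 of 6 were higher and 0 of 6 lower, where 2.83% of the 17381 genes tested were higher, 5.37% lower and 8.20% called in either direction. DESeq2 called Nfia and Nfib (2 of 6, against 12.3% of all genes), and limma voom with sample weights called Nfia (1 of 6, against 10.6%). At an unadjusted p under 0.05 edgeR had 4 of 6 members, Ncam2, Nfia, Nfib and Nfix, against 23.5% of all genes. The median log2 fold change was 0.01 over the members and -0.012 over all genes tested. The median of the members falls between 3 negative changes (-0.31 to -0.21) and the positive ones (0.23 to 0.29), and no member lay near it.

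**Figure D1:**
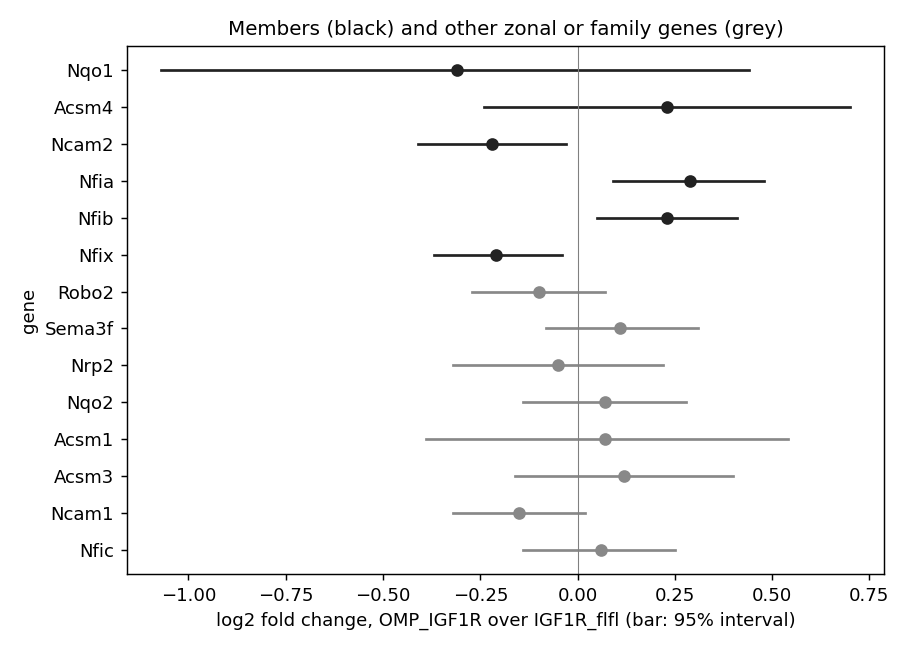
Log2 fold change (x axis, OMP_IGF1R over IGF1R_flfl) with its 95% interval for the 6 members in black and for other zonal and family genes in grey, from the edgeR fit over all genes with 4 libraries per group. The interval of Nqo1 is the widest of the members, from -1.07 to 0.44, while those of the 3 nuclear factor I members and Ncam2 lie on one side of 0, although none passed the adjusted test.

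Nqo1 (NAD(P)H quinone dehydrogenase 1, ENSMUSG00000003849, GRCm38 chromosome 8, 107388225 to 107403206) reduces quinones and is a target of the stress-responsive factor Nrf2. It stood at 131.5, 302.6, 319.5 and 333.6 CPM in IGF1R_flfl 1, 2, 13 and 3. In OMP_IGF1R 11, 12, 17 and 18 it stood at 313.2, 135.8, 273.1 and 153 CPM. In the first group 1 library was low and in the second 2 were, and the groups overlapped. Group means were 272 ± 94.4 and 219 ± 87.7 CPM (n = 4 each, SD), for a log2 change of -0.31 with SE 0.337 (edgeR adjusted p = 0.626). The 95% interval of the fold ran from 0.476 to 1.36, which spans both lower and higher levels. Nqo1 was among the most variable genes within groups: of the 11806 genes with a mean logCPM of at least 3, 0.635% had a larger within-group SD.

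Acsm4 (acyl-CoA synthetase medium-chain family member 4, ENSMUSG00000047026, chromosome 7, 119690026 to 119714567), an enzyme that activates medium-chain fatty acids, stood at 247.3, 450.8, 398 and 446.5 CPM in IGF1R_flfl 1, 2, 13 and 3. In OMP_IGF1R 11, 12, 17 and 18 it stood at 585.6, 371.4, 483.5 and 365.3 CPM. Library IGF1R_flfl 1 was again the lowest and OMP_IGF1R 12 and 18 were the lowest of their group, and the groups overlapped. Group means were 386 ± 95.3 and 451 ± 105 CPM (n = 4 each, SD), for a log2 change of 0.23 with SE 0.209 (95% interval -0.24 to 0.70, edgeR adjusted p = 0.562). Of the same 11806 genes, 2.48% varied more within groups.

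The same libraries were low in the receptors of the dorsal zone. The summed level of 129 class I receptor genes on chromosome 7 was 76.7, 133, 130 and 259 CPM in IGF1R_flfl 1, 2, 13 and 3. It was 187, 82, 179 and 92.3 CPM in OMP_IGF1R 11, 12, 17 and 18. The libraries IGF1R_flfl 1, OMP_IGF1R 12 and OMP_IGF1R 18 were thus the 3 lowest for class I receptors as they were for Nqo1. The 15 trace amine-associated receptors summed to 9.96, 26.6, 20.2 and 30.2 CPM in IGF1R_flfl and to 22.7, 8.33, 18.5 and 11.8 CPM in OMP_IGF1R, in the same library order, and the lowest 3 were again those libraries. All olfactory receptors together were also lowest of their group in OMP_IGF1R 12 and 18 (2075 and 2231 CPM, against 2259 and 2445 CPM), whereas IGF1R_flfl 1, at 3211 CPM, lay within the 2896 to 3571 CPM of its group.

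After each gene was centred on its group mean in logCPM, Nqo1 and Acsm4 varied together over the 8 libraries (Pearson r = 0.97, Spearman rho = 0.81, and r = 0.92 without IGF1R_flfl 1 and OMP_IGF1R 12, the libraries farthest from the median of Nqo1). Nqo1 had r = 0.89 with the class I sum and r = 0.96 with the trace amine-associated receptor sum (0.77 and 0.85 without those libraries). Its r with the summed mature neuron markers was 0.25. These values describe 8 libraries that share one normalization and were not tested. Beside this pattern, IGF1R_flfl 1 was also the lowest library in sustentacular cell markers (23383 CPM, against 26025 to 29198 CPM) and the highest in respiratory ciliated cell markers (726 CPM, against 466 to 604 CPM). In those lists OMP_IGF1R 12 and 18 lay within the range of the other libraries or, for OMP_IGF1R 12 in ciliated markers, at its lower end. Their part in the result was not tested.

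**Figure D2:**
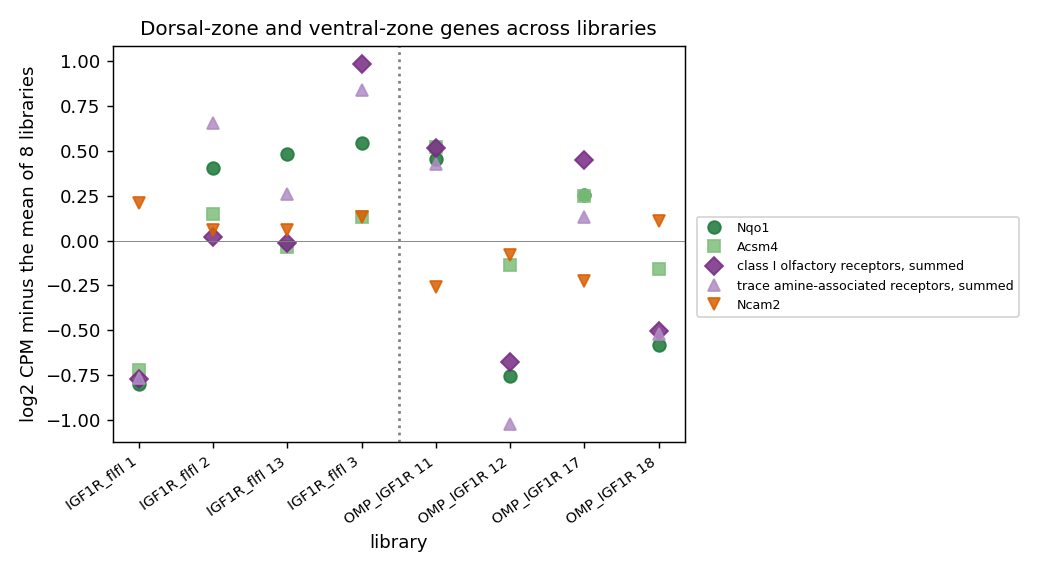
Log2 CPM of each gene or summed receptor group minus its mean over the 8 libraries (y axis) for each library (x axis), with a dotted line between the IGF1R_flfl and OMP_IGF1R titles. Nqo1, Acsm4 and both dorsal receptor groups all lie below 0 in IGF1R_flfl 1, OMP_IGF1R 12 and OMP_IGF1R 18, and Ncam2 moves over a narrower range.

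Ncam2 (neural cell adhesion molecule 2, ENSMUSG00000022762, chromosome 16, 81200697 to 81624285) stood at 95.96, 86.38, 86.35 and 91.04 CPM in IGF1R_flfl 1, 2, 13 and 3. In OMP_IGF1R 11, 12, 17 and 18 it stood at 69.34, 78.53, 71.18 and 89.74 CPM. In OMP_IGF1R 3 libraries lay below the whole IGF1R_flfl range, and OMP_IGF1R 18 lay within it. Group means were 89.9 ± 4.59 and 77.2 ± 9.26 CPM (n = 4 each, SD), for a log2 change of -0.22 with SE 0.083 (95% interval -0.41 to -0.03, edgeR adjusted p = 0.146).

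Within groups, Ncam2 ran against the dorsal markers. It was highest in IGF1R_flfl 1 and OMP_IGF1R 18, and its centred level had r = -0.76 with Nqo1 (Spearman rho = -0.86) and r = -0.75 with Acsm4 (rho = -0.79). The ratio of Ncam2 to Nqo1 was 0.73 in IGF1R_flfl 1 and 0.27 to 0.285 in the other 3 libraries of its group. In OMP_IGF1R it was 0.221, 0.578, 0.261 and 0.586 in libraries 11, 12, 17 and 18. The ventral to dorsal balance of these 2 markers therefore spanned 3.30-fold among libraries, and the group means of the ratio were 0.39 ± 0.227 and 0.412 ± 0.198 (SD, n = 4 each; log2 difference 0.09, -0.13 to 0.44 with any 1 library left out). Against the other dorsal marker the difference had the opposite sign: Ncam2 over Acsm4 was 0.25 ± 0.0925 and 0.181 ± 0.0582 (log2 difference -0.47, -0.63 to -0.23), and the groups overlapped for both ratios. The ratio of Acsm4 to Nqo1 ran from 1.25 to 1.88 in IGF1R_flfl and from 1.77 to 2.74 in OMP_IGF1R, and the groups overlapped because IGF1R_flfl 1 lay above OMP_IGF1R 11 and 17.

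Other genes known to differ along the dorsal to ventral axis were measured beside these. Robo2, a receptor of Slit proteins, stood at 95.1 ± 8.16 and 88.7 ± 6.62 CPM (log2 -0.10, edgeR adjusted p = 0.47). Sema3f, a secreted repellent of axons, stood at 45.8 ± 4.76 and 49.6 ± 4.43 CPM (0.11, edgeR adjusted p = 0.474), and its receptor Nrp2 at 155 ± 29.9 and 150 ± 8.37 CPM (-0.05, edgeR adjusted p = 0.838; all SD, n = 4 each). Nrp2, like Ncam2, was highest in IGF1R_flfl 1 (197 CPM, against 129.9 to 156.1 CPM in the other 7 libraries), but unlike Ncam2 it was not highest of its group in OMP_IGF1R 18 (149.5 CPM). Sema3f was 49.76 CPM in IGF1R_flfl 1, near the top of its group (40.56 to 49.84 CPM), and Robo2 was 87.78 CPM there, the lowest of its group (87.78 to 105.7 CPM). In OMP_IGF1R 12 and 18, however, Robo2 stood at 81.05 and 95.73 CPM, the lowest and the highest of its group. Sema3f stood at 45.07 and 49.69 CPM in those libraries (45.07 to 55.61 CPM in the group). None of the 3 was called.

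**Figure D3:**
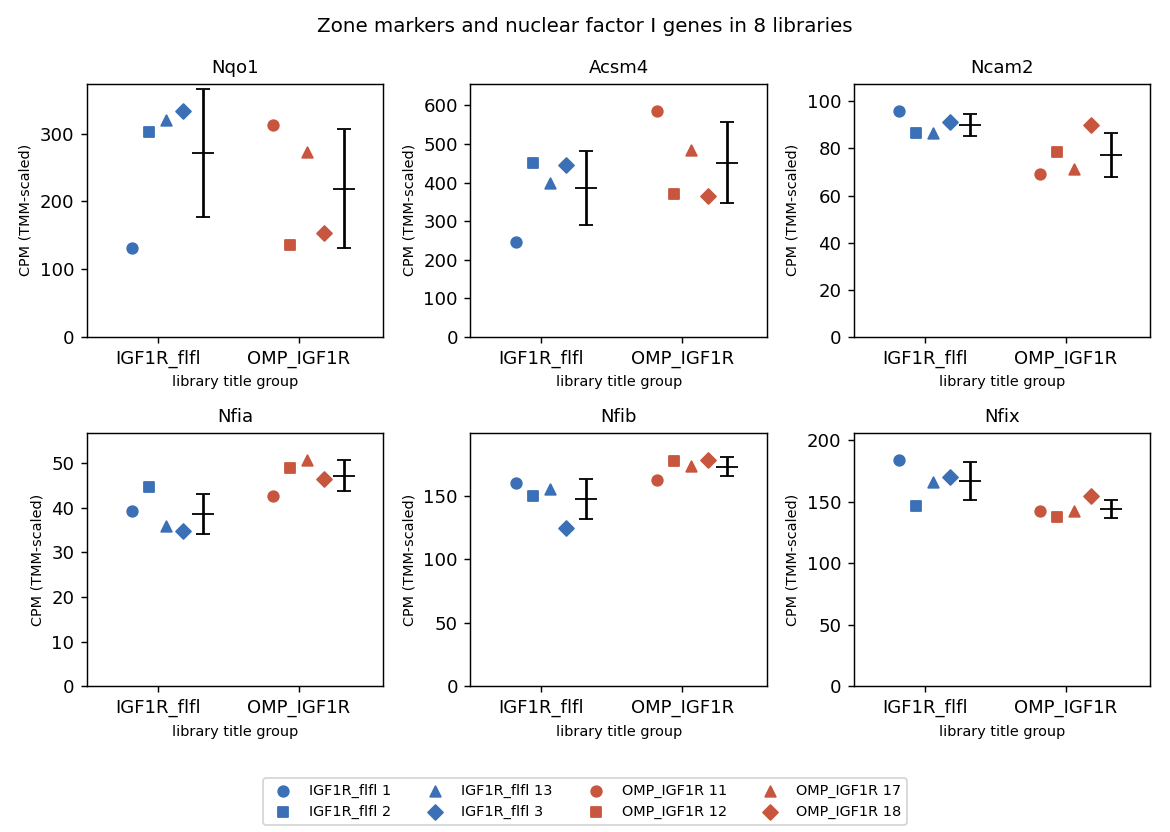
CPM (y axis, TMM-scaled, starting at 0) of the 6 members in the 4 libraries titled IGF1R_flfl (blue) and the 4 titled OMP_IGF1R (red), with the mean and SD of each group in black. Nqo1 and Acsm4 spread widely within both groups, and Nfib is the member whose groups do not overlap (124.8 to 159.7 against 162.7 to 178.1 CPM).

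Among the nuclear factor I genes, Nfia and Nfib lay higher and Nfix lower in the libraries titled OMP_IGF1R, and none of these differences passed edgeR's adjusted test. Nfia (ENSMUSG00000028565, chromosome 4, 97772734 to 98118874), known for its role in gliogenesis as well as in neurons, stood at 39.33, 44.66, 35.84 and 34.82 CPM in IGF1R_flfl 1, 2, 13 and 3. Its OMP_IGF1R values were 42.65, 48.83, 50.7 and 46.46 CPM in libraries 11, 12, 17 and 18. Only IGF1R_flfl 2, the library with bulb and oligodendrocyte RNA, reached into the range of the other group. The log2 fold change was 0.29 (SE 0.0873, 95% interval 0.09 to 0.48, edgeR adjusted p = 0.0795). Without IGF1R_flfl 2 it was 0.37 and passed the test (edgeR adjusted p = 0.0164), as it did by DESeq2 (0.30, adjusted p = 0.0274) and by limma voom with sample weights (0.30, adjusted p = 0.0308). With any other single library left out, Nfia did not pass (edgeR adjusted p of 0.0815 to 0.193). It was called in 5 of 16 alternative fits, which include the scaling to mature neuron markers.

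Nfib (ENSMUSG00000008575, chromosome 4, 82290173 to 82705750), a transcription factor of lung and brain development, stood at 159.7, 149.8, 155.4 and 124.8 CPM in IGF1R_flfl 1, 2, 13 and 3. In OMP_IGF1R 11, 12, 17 and 18 it stood at 162.7, 177.6, 173.8 and 178.1 CPM. Every OMP_IGF1R library was above every IGF1R_flfl library, as in either direction for 16.9% of all genes tested. The log2 fold change was 0.23 (SE 0.0797, 95% interval 0.05 to 0.41, edgeR adjusted p = 0.115), and DESeq2 called it (0.24, adjusted p = 0.0327). With any 1 library left out, edgeR did not call Nfib (adjusted p of 0.104 to 0.246).

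Nfix (ENSMUSG00000001911, chromosome 8, 84699876 to 84800344), which acts in neural and muscle stem cells, stood at 183.6, 146.5, 166 and 169.8 CPM in IGF1R_flfl 1, 2, 13 and 3. In OMP_IGF1R 11, 12, 17 and 18 it stood at 142.1, 137.2, 142.7 and 154.7 CPM. OMP_IGF1R 18 and IGF1R_flfl 2 overlapped. The log2 fold change was -0.21 (SE 0.0743, 95% interval -0.37 to -0.04, edgeR adjusted p = 0.128), and without IGF1R_flfl 2 it was -0.25 and passed the test (edgeR adjusted p = 0.0453). With any other single library left out, Nfix did not pass (edgeR adjusted p of 0.148 to 0.282). The fourth family member, Nfic, ran from 86.41 to 108.2 CPM in IGF1R_flfl and from 93.69 to 110.5 CPM in OMP_IGF1R (log2 0.06, 95% interval -0.14 to 0.25, edgeR adjusted p = 0.736).

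The ratio of Nfix to Nfib, which does not depend on library scaling, was 1.15, 0.978, 1.07 and 1.36 for IGF1R_flfl 1, 2, 13 and 3. For OMP_IGF1R 11, 12, 17 and 18 it was 0.874, 0.772, 0.821 and 0.868. The groups did not overlap, and the mean difference of the log2 ratio was -0.44 (-0.51 to -0.35 with any 1 library left out). The ratio of Nfib to Nfia was 3.83 ± 0.445 and 3.68 ± 0.189 (SD, n = 4 each). The summed level of the 4 family genes ran from 416 to 474 CPM in IGF1R_flfl and from 458 to 485 CPM in OMP_IGF1R. The ratio of Nfix to Nfib was singled out after the values were seen and was not tested.

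**Figure D4:**
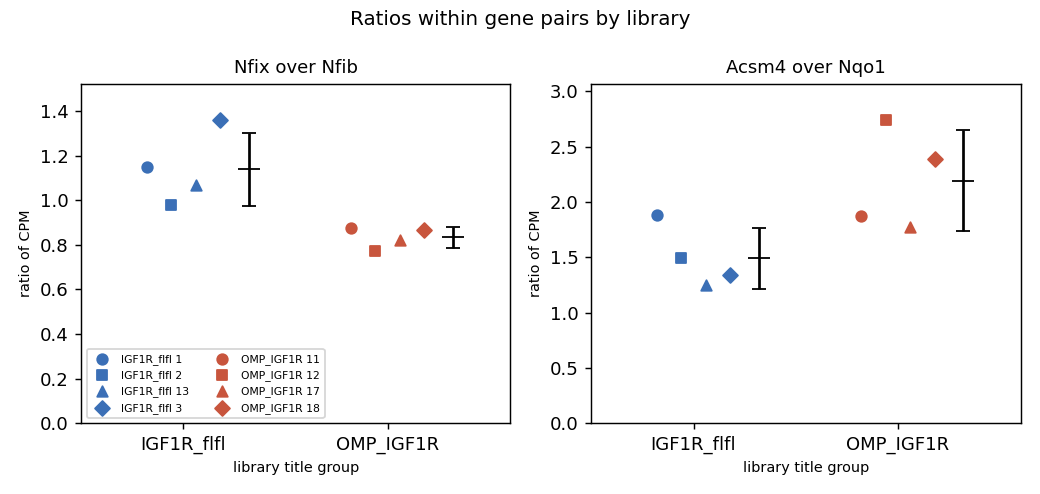
Ratio of CPM (y axis, starting at 0) of Nfix to Nfib and of Acsm4 to Nqo1 in each library, by title group, with the mean and SD in black. The ratio of Nfix to Nfib lies between 0.978 and 1.36 in IGF1R_flfl and between 0.772 and 0.874 in OMP_IGF1R, while the groups overlap for Acsm4 to Nqo1.

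Markers of the cell types that can express nuclear factor I genes also differed between the groups. The 12 immature neuron markers summed to 1146 to 1278 CPM in IGF1R_flfl, against 1661 to 1835 CPM in OMP_IGF1R, and 8 were called higher. The 12 markers of globose basal cells and precursors summed to 186 to 223 and to 314 to 399 CPM, and 11 were called higher. The 9 horizontal basal cell markers summed to 333 to 389 and to 444 to 643 CPM, and 4 were called higher. Beside these counts, 2.83% of all genes tested were called higher. Fibroblast markers (1986 to 2665 and 2458 to 3046 CPM), macrophage markers (98.6 to 132 and 127 to 142 CPM) and endothelial markers (75 to 115 and 101 to 113 CPM) overlapped, with 0 of 6, 0 of 6 and 0 of 5 called by edgeR and 2, 2 and 0 at an unadjusted p under 0.05. Bowman gland markers varied widely in both groups (3476 to 18325 and 3115 to 14883 CPM). Ensheathing glia markers ran from 214 to 957 CPM and from 249 to 317 CPM, the highest being IGF1R_flfl 2. None of these lists had a member at 0 counts in every library, and their part in the nuclear factor I differences was not tested. Within groups, IGF1R_flfl 3 was the lowest library of its group in Nfib, in fibroblast markers (1986 CPM) and in macrophage markers (98.6 CPM), and the highest in mature neuron markers (17786 CPM). The centred level of Nfib had r = 0.87 with the macrophage sum and 0.85 with the fibroblast sum (0.51 and 0.45 without IGF1R_flfl 3 and OMP_IGF1R 11), and r = -0.84 with the class I receptor sum (-0.67 without them). Nfix had r = -0.87 with ensheathing glia and 0.89 with ciliated cell markers (-0.50 and 0.67 without IGF1R_flfl 1 and 2). Nfia had r = 0.71 with the bulb and oligodendrocyte sum, which was -0.06 without IGF1R_flfl 2 and 3. With the immature neuron sum, r was 0.72 for Nfix, -0.13 for Nfib and -0.27 for Nfia. Without the libraries named for each gene it was 0.70, 0.44 and 0.02.

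Of the 16 mature sensory neuron markers, edgeR called 14 lower and 0 higher in the libraries titled OMP_IGF1R, where 5.37% of all genes tested were lower. The members were therefore also expressed relative to these markers. Per 1000 CPM of the mature neuron markers, Nfia was 1.96 to 3.36 CPM in IGF1R_flfl and 4.54 to 5.44 CPM in OMP_IGF1R, Nfib 7.02 to 11.4 and 17 to 19.8 CPM, and Acsm4 16.9 to 34 and 39.3 to 62.3 CPM. Ncam2 was 5.12 to 6.56 and 6.98 to 9.66 CPM and Nfix 9.55 to 12.5 and 14 to 16.7 CPM, and these 5 of 6 members did not overlap between groups, as 75.2% of all genes tested did not on this scale. Nqo1, at 8.98 to 23.5 and 15.1 to 33.3 CPM, did overlap. With libraries scaled to these markers in edgeR, the median log2 change over all genes moved from -0.012 to 0.62 and 80.4% of genes were called. Against that median, Acsm4 (0.86), Nfia (0.91) and Nfib (0.85) lay above it and Ncam2 (0.42), Nfix (0.43) and Nqo1 (0.31) below it. The order of the 6 genes is the order seen without this scaling.

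**Figure D5:**
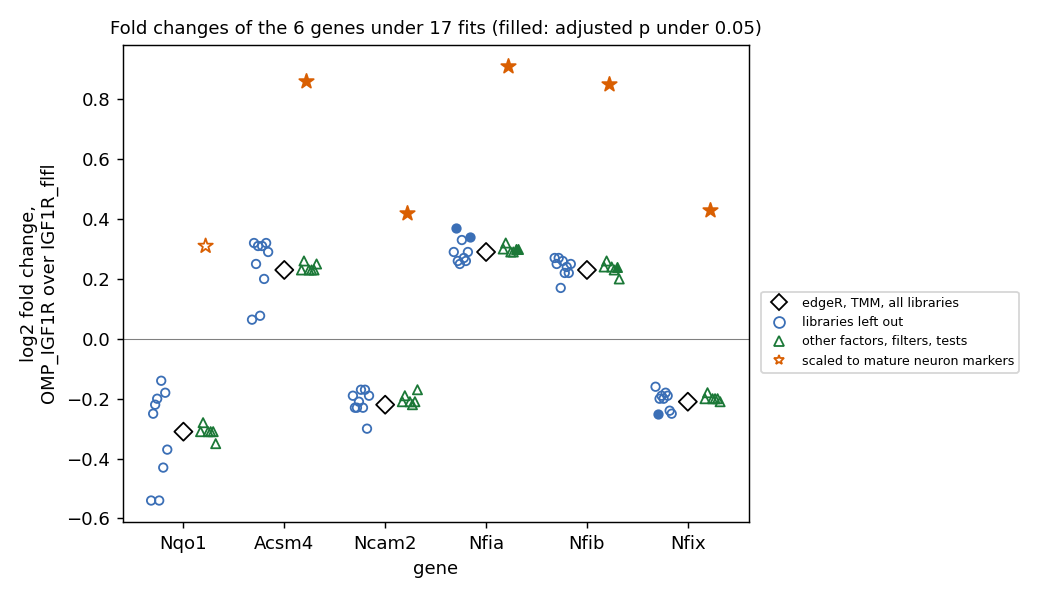
Log2 fold change of each member (y axis) under 17 fits: edgeR with TMM on all libraries (diamond), libraries left out (circles), other factors, filters and tests (triangles) and scaling to mature neuron markers (star). Filled symbols passed an adjusted p of 0.05. Apart from the star, each gene keeps its sign in all fits.

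None of the relatives of the zone markers was called. Nqo2, the paralog of Nqo1, stood at 19 ± 1.61 and 20 ± 2.08 CPM, and Ncam1, the pan-neuronal relative of Ncam2, at 179 ± 17.3 and 162 ± 8.37 CPM (means with SD, n = 4 each; edgeR adjusted p of 0.688 and 0.279). Among the synthetases next to Acsm4 on chromosome 7, Acsm3 stood at 86.2 ± 15.5 and 93.8 ± 9.78 CPM and Acsm1 at 3.87 ± 0.955 and 4.06 ± 0.801 CPM (edgeR adjusted p of 0.611 and 0.87, n = 4 each, SD). Acsm2 and Acsm5 had at most 1 and 4 reads in a library and were not tested. Acsm3, like Acsm4, was lowest in IGF1R_flfl 1 (69.42 CPM) and highest in OMP_IGF1R 11 (108.1 CPM).

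Of the 14 genes of the list of quinone reductases and Nrf2 targets, 2 were called lower, 0 higher and 12 neither (median log2 -0.13). Among all genes tested, 5.37% were called lower and 2.83% higher. Srxn1, a sulfiredoxin, fell from 73.2 ± 9.99 to 45.9 ± 5.74 CPM (log2 -0.67, edgeR adjusted p = 0.00993), and Hmox1, a heme oxygenase, fell from 27 ± 2.32 to 18.6 ± 2.17 CPM (-0.54, edgeR adjusted p = 0.0123; SD, n = 4 each). Srxn1 was lowest in its group in IGF1R_flfl 1 (62.68 CPM, against 67.05 to 83.91 CPM), as Nqo1 was. In OMP_IGF1R 11, 12, 17 and 18 it stood at 51.17, 40.7, 50.56 and 41.2 CPM, the library order of Nqo1. Hmox1 was likewise lowest in IGF1R_flfl 1 (24.01 CPM) within its group and in OMP_IGF1R 12 and 18 (17.11 and 16.4 CPM) within the other. Nfe2l2, which encodes Nrf2, stood at 281 ± 26.9 and 232 ± 9.49 CPM without overlap (-0.28, edgeR adjusted p = 0.0526). Not all of the list followed Nqo1 across libraries. G6pdx had the order of Nqo1 in OMP_IGF1R (127.8, 110.1, 125.9 and 120.2 CPM). Nqo2 did not, being highest of its group in IGF1R_flfl 1 (20.1 CPM) and lowest of its group in OMP_IGF1R 11 (17.55 CPM). Nfe2l2 was lowest of its group in OMP_IGF1R 11 (219.2 CPM), where Nqo1 was highest.

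Of the 11 guidance factors tied to the dorsal to ventral axis, 2 rose and 1 fell, with a median log2 fold change of -0.04. For this list and the adhesion molecules below, the shares over all genes tested were 2.83% higher and 5.37% lower. Plxna3, a plexin that forms a receptor with Nrp2, fell from 249 ± 42 to 162 ± 8.72 CPM (SD, n = 4 each; log2 -0.63, edgeR adjusted p = 0.0117). Sema3a, a secreted semaphorin, rose by 0.39 and its receptor Nrp1 by 0.22 on the log2 scale (edgeR adjusted p = 0.0438 and 0.044). Both calls were close to the threshold: leaving out a library ended that of Sema3a in 6 of 8 cases (IGF1R_flfl 13 and OMP_IGF1R 17 excepted, edgeR adjusted p reaching 0.127) and that of Nrp1 in 7 of 8 (IGF1R_flfl 1 excepted, reaching 0.123), while the log2 changes stayed at 0.32 to 0.46 and 0.19 to 0.26. Of 9 adhesion molecules of the immunoglobulin type, 1 fell, Kirrel3 (-0.43, edgeR adjusted p = 0.0318), which lost its call without IGF1R_flfl 13 or 3 or OMP_IGF1R 12, 17 or 18 (adjusted p up to 0.101). The list's median was -0.15.

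Retinoic acid is a signal with graded supply along the epithelium, and of its 17 pathway genes 1 rose and 0 fell (median log2 0.22). The shares over all genes tested, here and for the receptor choice regulators below, were 2.83% higher and 5.37% lower. Crabp1, a cytosolic retinoic acid binding protein, rose from 50.5 ± 4.17 to 65 ± 0.698 CPM (SD, n = 4 each; log2 0.36, edgeR adjusted p = 0.00993). Of 17 regulators of receptor choice, 2 fell and 0 rose (median -0.01): the receptor transport proteins Rtp2 (-0.51, edgeR adjusted p = 0.00918) and Rtp1 (-0.42, edgeR adjusted p = 0.019; 0.0565 without OMP_IGF1R 12 and 0.0668 without OMP_IGF1R 18). Both are also among the 16 mature neuron markers, of which 14 were called lower (median log2 -0.65). Emx2, a homeobox factor, stood at 55.8 ± 7.61 and 61.5 ± 4.09 CPM, and Lhx2, which binds receptor enhancers, at 238 ± 33.4 and 234 ± 11.3 CPM (SD, n = 4 each), neither called.

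Of the dorsal receptors, 1 of 11 tested trace amine-associated receptors was called, Taar7a, which fell from 1.86 ± 0.343 to 0.438 ± 0.0693 CPM (SD, n = 4 each; log2 -2.06, edgeR adjusted p = 0.00278), and 1 of 94 tested class I receptors, Olfr643, which fell (-2.34, edgeR adjusted p = 0.0467) and was no longer called in 6 of 8 fits with a library left out (IGF1R_flfl 1 and 2 excepted, edgeR adjusted p reaching 0.135). Near-identical receptors may share reads. Of all 875 olfactory receptors tested, 122 were called lower and 5 higher, and of all genes tested 5.37% were lower and 2.83% higher. The class I receptors had a median log2 fold change of -0.14 and the trace amine-associated receptors of -0.47, against -0.33 for all 875 receptors tested.

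Genes whose centred logCPM most resembled each member over the 8 libraries were sought among genes with a mean logCPM of at least 3. For Nqo1 they included Ddt (r = 0.98) and Slc50a1 (0.97), and Acsm4 ranked at place 6 of 11805 genes. For Acsm4 they were 2210404J11Rik (0.99), AC117767.1 (0.98) and Pcx, a pyruvate carboxylase (0.98), and Nqo1 ranked at place 10. For Ncam2 they were Thbs1, a secreted matrix protein (0.98), Pion (0.98) and Sec24b (0.96), while Acsm4 and Nqo1 lay at places 11606 and 11620, close to the opposite end. For Nfia they were Kcnh7, 0610007L01Rik (0.98 each) and Sbds (0.97), for Nfib Atp13a3, Laptm5 and Antxr2 (0.99 each), and for Nfix Dusp18 (0.98), Abhd2 and Etv6 (0.97 each). With 8 points many genes reach such values: 4 (Ncam2) to 39 (Nfib) genes had r of at least 0.95 with a member. No nuclear factor I gene was close to another by this measure, the highest r being 0.50 for Nfia with Nfib and the lowest -0.48 for Nfia with Nfix.

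In the authors' deposited table, which called 13.4% of the genes with an adjusted p, Nfia (log2 0.27, adjusted p = 0.0264) and Nfib (0.23, adjusted p = 0.0302) passed 0.05. In the authors' deposited table Nfix (-0.19, adjusted p = 0.0708), Ncam2 (-0.20, adjusted p = 0.119), Acsm4 (0.16, adjusted p = 0.624) and Nqo1 (-0.13, adjusted p = 0.722) did not. Its headers do not name the direction of the fold changes. Their sign was that of the edgeR fit for 98.4% of the 17381 genes held by both.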

How the data were processed

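Poly(A)-enriched stranded libraries were made from dissected olfactory epithelium and read from both ends, per the labels' protocols. The submitters' processing notes name TopHat2 2.0.14, Trim Galore 0.3.7, DESeq2, SAMtools 1.2 and the build GRCm38 (mm10). How reads were counted, and with which strand setting, is not given in the sources used here, so overlapping and antisense genes may share reads. The deposited counts per gene are whole numbers and not normalized. The authors' deposited comparison holds a mean normalized signal, log2 fold changes, a test score and p-values, per the file headers, used for description alone.

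Counts were tested with edgeR 4.0.16 in R 4.3.3 (quasi-likelihood F-test, TMM, filterByExpr), with Benjamini-Hochberg adjustment over 17381 genes and a threshold of 0.05. CPM used TMM effective library sizes and logCPM a prior count of 2. Exon lengths came from GENCODE M21 (GRCm38), which held 25012 of the 25913 identifiers. Counts of any 2 libraries within a title differed by more than counting noise (chi-square averaging 11.4 to 103 over genes), so none is a second deposit of the same library; this does not show that they came from separate mice. The fit was tested on simulated data with these libraries' means (OMP_IGF1R over IGF1R_flfl, 17381 genes, 200 of them changed). It found 29.0% of changes of 0.5 log2 and 70.0% of changes of 1 log2, and 4.81% of its calls were false. Both sizes exceeded the change of every member, and fewer genes were changed than the 1425 called in the data. These shares therefore do not say how often a change of a member's size would be found.

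The members, the 10 pathway lists, the 13 marker lists and the alternatives were chosen with earlier results of these data known. Named genes were the members, their family members, Igf1r and Omp, up to 4 called genes of each list by p, and the 3 genes most like each member, of which 1 is not reported here; others were named after their values were seen. Counting noise is small for the members (789 reads or more per library), and genes at a few reads are less certain. The numbers opening the titles follow the group, so a batch that follows them cannot be told apart from it.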

Additional observations from a re-analysis of the deposited data

Results flagged for a closer look

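Within groups of 4, a library was marked by Dixon's test of its gap to the nearest other library, which marks about 1 in 20 groups by chance. Of 44 overlapping group checks 6 were marked. In IGF1R_flfl 1, Nqo1 stood at 131 CPM against 303 to 334 CPM in the rest of its group. The ratio of Ncam2 to Nqo1 in that library was 0.73 against 0.27 to 0.285, and that of Ncam2 to Acsm4 was 0.388 against 0.192 to 0.217. Ncam1 stood at 149 CPM in OMP_IGF1R 17, the library with muscle markers, against 164 to 167 CPM. Per 1000 CPM of mature neuron markers, IGF1R_flfl 3 had 5.12 CPM of Ncam2 against 6.36 to 6.56 CPM, and 7.02 CPM of Nfib against 10.9 to 11.4 CPM.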

How the results depend on the processing

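The members were refitted under 16 alternatives, and with the exception of scaling to mature neuron markers all 6 kept their direction. Under that scaling, whose construction moves all genes upward, Nqo1 (0.31), Ncam2 (0.42) and Nfix (0.43) changed sign and Acsm4 (0.86), Nfia (0.91) and Nfib (0.85) were called. Ncam2 and Nfix were called too, and Ncam1 (0.50), Plxna3 (0.029), Kirrel3 (0.21), Hmox1 (0.086), Rtp2 (0.12), Rtp1 (0.21), Robo2 (0.53) and Nrp2 (0.58) also changed sign. Rtp1 and Rtp2 are among the markers that set the scaling, so their values under it are partly fixed by it. That scaling called 13983 genes (13888 higher and 95 lower, against 492 and 933) and 76 of the pathway lists. DESeq2 called 2140 genes, 25 of the pathway lists against 11 by edgeR, Nfia (0.30) and Nfib (0.24), and voom with sample weights called Nfia (0.30). Without IGF1R_flfl 2 and OMP_IGF1R 17 together, Nfia was 0.34 and called (adjusted p = 0.0338).

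With 1 library left out, Nqo1 ran from -0.54 to -0.14, Acsm4 from 0.064 to 0.32, Ncam2 from -0.30 to -0.17, Nfia from 0.25 to 0.37, Nfib from 0.17 to 0.27 and Nfix from -0.25 (called, without IGF1R_flfl 2) to -0.16. Nrp2 ran from -0.12 to 0.084 (positive without IGF1R_flfl 1) and Acsm1 from -0.073 to 0.23 (negative without IGF1R_flfl 2 or 3 or OMP_IGF1R 18). The genes called numbered 569 (without OMP_IGF1R 18) to 1477 against 1425, with 841, 886, 724 and 613 without IGF1R_flfl 1, IGF1R_flfl 3, OMP_IGF1R 11 and OMP_IGF1R 12, and those of the pathway lists 6 (without OMP_IGF1R 12) to 17 (without IGF1R_flfl 2), with 7 without OMP_IGF1R 18. The causes were not tested. No paired analysis was possible because the groups share no replicate numbers. Acsm2 and Acsm5, at no more than 1 and 4 reads in a library, could not be tested at this depth.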
